A study of Mus musculus with 6 samples.

Results

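Genes of NF-kB signalling, innate sensing and cytokine production were followed across poly(A) RNA sequencing libraries of mouse cells labelled as female germline stem cells (FGSC) and of the same kind of cells after induced differentiation (Dif-FGSC). The 44 members were chosen by gene symbol, and all 44 had a row among the 24672 genes of the deposited expression table. They comprise 4 sensors, 11 adaptors and proximal kinases, 3 subunits of the IkB kinase (IKK), 5 NF-kB subunits, 7 inhibitors, 12 secreted cytokines and 2 genes of mRNA decay and early response. Expression is given as FPKM, fragments scaled by transcript length and library size, a unit that allows levels of different genes to be compared per length.

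Each group had 3 libraries from C57BL/6 cells beyond passage 20. Inactivated STO fibroblasts, a mouse embryonic line, served as feeders for FGSC, in 10% serum with LIF at 10 ng/mL, EGF at 20 ng/mL, bFGF at 10 ng/mL and GDNF at 10 ng/mL. For Dif-FGSC the STO feeders were taken away, and the cells were placed on inactivated granulosa cells in 10% serum with bFGF at 10 ng/mL, BMP4 at 10 ng/mL and retinoic acid at 0.1 µmol/L. Feeder type, LIF, EGF, GDNF, BMP4 and retinoic acid therefore changed together and their parts cannot be told apart. The labels do not say whether the 3 libraries stem from different cultures, and the error behind each p-value may thus be partly or wholly technical.

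NF-kB is a family of dimeric transcription factors that rest in the cytoplasm, held by IkB proteins. Toll-like receptors, cytokine receptors and immunoreceptors signal through adaptors to IKK, which marks IkB for destruction and frees the dimers to enter the nucleus. Their targets include cytokine genes and the genes of the inhibitors themselves, so the pathway carries its own brakes, and it is best known from immune cells such as mast cells and macrophages.

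The labelled cell type was checked against defining markers. Of 12 germ cell markers 10 stayed below 0.1 FPKM in every library, among them Ddx4, Dazl and Gfra1. Their summed level was 0.0317 to 0.0588 FPKM in FGSC and 0.52 to 1.0 FPKM in Dif-FGSC, where most of it came from Zbtb16. Of 16 mast cell markers 7 reached a mean of 1 FPKM. By the test described below 6 of these (85.7%) were higher in Dif-FGSC, where 36.5% of all tested genes were. Of the 6, Mcpt2 and Mcpt8 passed the filter only through Dif-FGSC and so had to differ. The summed level of the 16 was 597 to 639 FPKM in FGSC and 765 to 774 in Dif-FGSC. Cpa3, the mast cell carboxypeptidase, alone stood at 288 FPKM in FGSC and 301 in Dif-FGSC, while Tpsb2 and Mrgprb2 were listed at 0 in every library. Several other mast cell markers were near 0. Ms4a2 stood at 0.133 FPKM in FGSC and 0.0596 in Dif-FGSC, Hdc at 0.0744 and 0.0697, and Fcer1a and Tpsab1 were lower still. The 12 macrophage markers summed to between 29.2 and 30.7 FPKM in FGSC and between 15.3 and 15.6 in Dif-FGSC, with C1qa, C1qb and C1qc listed at 0 throughout. Adgre1 carried this gap, at 20.4 FPKM in FGSC and 4.28 in Dif-FGSC, while Cd68 went the other way and was called as higher, from 3.19 to 6.19 FPKM. The 10 neutrophil markers summed to 25.8 to 29.5 FPKM in FGSC and 27.1 to 27.9 in Dif-FGSC. Nearly all of this was Cxcr2, at 27.3 and 27.4 FPKM, and the other 9 stayed below 0.1 FPKM in every library. The STO fibroblast markers summed to at most 0.639 FPKM and the granulosa markers to at most 0.834 in any library, with Col3a1 and Foxl2 listed at 0, and lymphocyte markers summed to at most 0.114. FGSC and Dif-FGSC are used below as the names of the libraries. In bulk RNA, fewer cells of a type and less RNA per cell cannot be told apart, and the part that the differences in mast cell and macrophage markers have in the differences below was not tested.

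Low FPKM values implied between 17.4 and 27.0 M fragments per library, with 73.8% to 76.5% of low values within 0.1 of a whole fragment where chance gives 20%. This share is raised because the depth was set from the same values. Differences were tested with limma on log2(FPKM + 1) for the 9162 genes with a mean of at least 1 FPKM, and genes with a Benjamini-Hochberg adjusted p below 0.05 are referred to as called. A log2 difference is Dif-FGSC minus FGSC on that scale, where the change of a low gene comes out too small, and its error is the SE of the fit.

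Of the 44 members 31 were tested, and 18 were higher and 5 lower in Dif-FGSC while 8 were not called. Among all tested genes 65.1% were called, 36.5% as higher and 28.6% as lower, so that 74.2% of the tested members called in either direction lies near the background, and 58.1% called higher lies above it. Calls with at least a 1.5-fold difference in FPKM + 1 numbered 11 of 31 members, 9 higher and 2 lower, where the background is 9.8%, made up of 6.88% higher and 2.93% lower. The groups did not overlap for 22 of the 31, or 71%, against 70.7% of all tested genes. Those 22 were 18 higher and 4 lower, where the background is 39.6% and 31%. The median log2 difference of the tested members was 0.19, against 0.03 for all tested genes. Tlr6, Nlrp3, Card9 and Irak2 passed the filter only through the group in which they were high and so had to differ, and the counts over tested members therefore describe and do not test. By role, all 5 NF-kB subunits and 4 of 5 tested inhibitors were higher, while sensors, adaptors and cytokines held members called in both directions. Differences between roles were not tested.

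**Figure D1:**
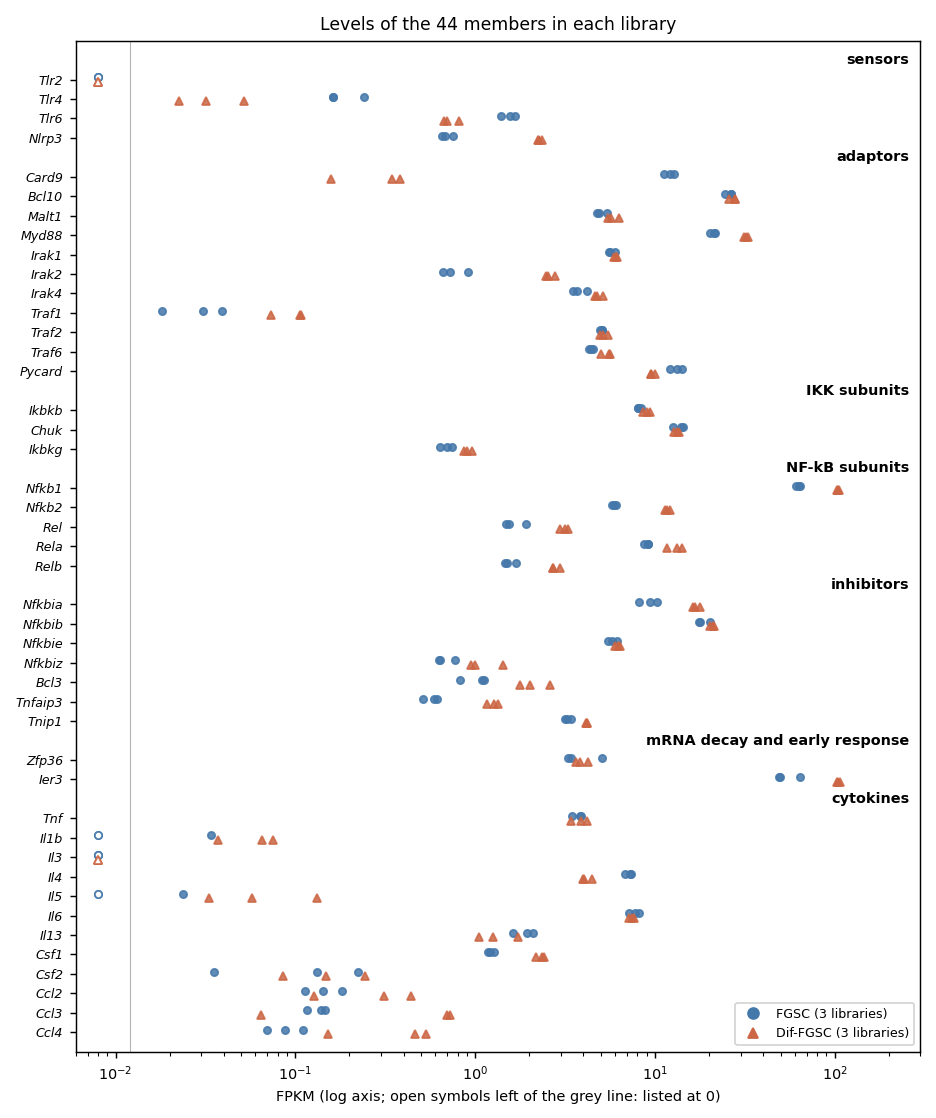
FPKM of the 44 members in each library on a log axis, grouped by role, with circles for the 3 FGSC libraries, triangles for the 3 Dif-FGSC libraries and open symbols for values listed at 0. Nfkb1 and Ier3 are the highest members, Card9 shows the widest gap between the groups, and Tlr2 and Il3 were listed at 0 in every library.

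All 5 genes of the NF-kB subunits rose in Dif-FGSC, where 36.5% of all tested genes were called as higher. Nfkb1, which encodes p105 and its processed form p50, was by far the most abundant member of the family, at 64.2, 63.2 and 61.2 FPKM in FGSC and 103.9, 103.2 and 106.4 in Dif-FGSC. Every Dif-FGSC library stood well above every FGSC library, and the mean rose from 62.9 ± 1.5 to 104.5 ± 1.69 FPKM (SD, n = 3 each), a log2 difference of 0.72 ± 0.0291 (limma adjusted p = 1.43e-06). Nfkb2, which encodes p100 and the p52 subunit of the non-canonical pathway, stood at 6.09, 5.96 and 5.77 FPKM in FGSC and at 12.2, 11.7 and 11.5 in Dif-FGSC. Its level about doubled, by 1.98 times, the highest ratio among the subunits (log2 difference 0.88 ± 0.0394, limma adjusted p = 2.16e-06).

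Rela, the p65 subunit that carries a transactivation domain, was listed at 8.75, 9.13 and 9.21 FPKM in FGSC and at 11.7, 14.1 and 13.3 in Dif-FGSC. The groups were apart but the Dif-FGSC libraries spread more, and the rise was 1.44 times (log2 difference 0.48 ± 0.0629, limma adjusted p = 0.000352). Rel, the c-Rel subunit of blood cells, stood at 1.49, 1.54 and 1.91 FPKM in FGSC and at 3.29, 2.98 and 3.16 in Dif-FGSC, a rise of 1.91 times (limma adjusted p = 0.000147). Relb, the partner of p52, stood at 1.51, 1.69 and 1.47 FPKM in FGSC and at 2.70, 2.95 and 2.70 in Dif-FGSC, a rise of 1.79 times (limma adjusted p = 8.52e-05). The calls of all 5 subunits held under each of the alternatives in which they were tested.

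The summed level of the 5 subunits was 79.6 to 82.0 FPKM in FGSC and 134 to 137 in Dif-FGSC, or 1.67 times higher. The make-up of this sum moved little. Nfkb1 supplied 76.9% to 78.3% of it in FGSC and 76.5% to 77.7% in Dif-FGSC, ranges that overlap. The share of Rela was 10.7% to 11.6% in FGSC and 8.78% to 10.4% in Dif-FGSC, and that of Nfkb2 was 7.25% to 7.42% and 8.36% to 9.1%, so that these minor shares did not overlap between the groups. Nfkb1 stood 6.65 to 7.33 times above Rela in FGSC and 7.32 to 8.85 times in Dif-FGSC, ranges that just touch.

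**Figure D2:**
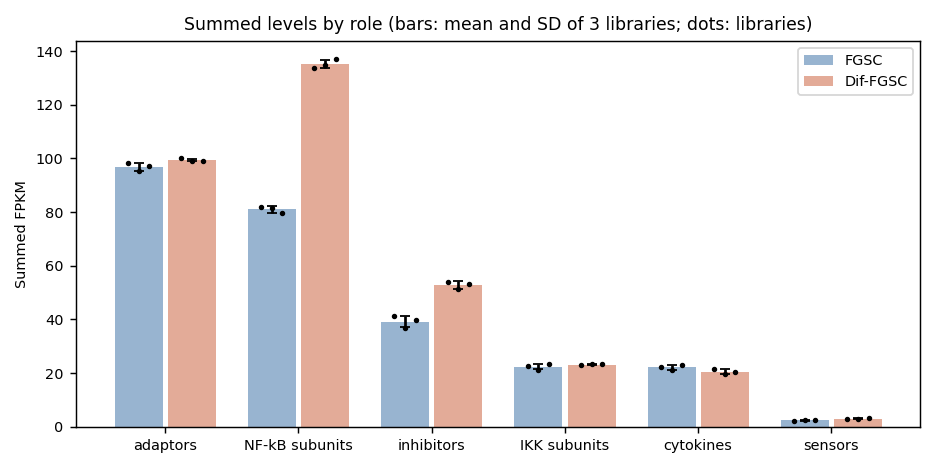
Summed FPKM of the members of 6 roles, with bars for the mean and SD of 3 libraries and dots for single libraries. The NF-kB subunits stand at 79.6 to 82.0 FPKM in FGSC and 134 to 137 in Dif-FGSC, while the sums of the IKK subunits and of the cytokines overlap between the groups.

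Of the 7 inhibitors 5 were tested, and 4 (80%) were higher and none lower, against 36.5% and 28.6% of all tested genes. Nfkbia, which encodes IkB-alpha and is itself a target of NF-kB, stood at 9.45, 8.21 and 10.2 FPKM in FGSC and at 17.9, 16.4 and 16.7 in Dif-FGSC. The groups were far apart, with a rise of 1.83 times (log2 difference 0.81 ± 0.0735, limma adjusted p = 5.69e-05). Nfkbia per Rela was 0.899 to 1.11 in FGSC and 1.16 to 1.52 in Dif-FGSC, while Nfkbia per Nfkb1 overlapped, at 0.13 to 0.167 and 0.157 to 0.172. Bcl3, an atypical IkB that works in the nucleus with p50 and p52, was listed at 1.12, 0.821 and 1.10 FPKM in FGSC and at 2.03, 1.78 and 2.61 in Dif-FGSC. All Dif-FGSC libraries were higher, with a rise of 2.11 times (log2 difference 0.64 ± 0.107, limma adjusted p = 0.00129). Bcl3 and Nfkbiz are counted as inhibitors by their IkB family. Whether they act as brakes in these cells was not tested.

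The other classical IkB genes moved less. Nfkbib, encoding IkB-beta and the most abundant inhibitor in both groups, stood at 18.6 ± 1.51 FPKM in FGSC and 21.0 ± 0.545 in Dif-FGSC (limma adjusted p = 0.029). That call was lost with quantile normalization (limma adjusted p = 0.187), with median-ratio scaling (0.0651), without a filter on low values (0.0589) and without FGSC replicate 2 (0.092), FGSC replicate 3 (0.0799), Dif-FGSC replicate 1 (0.0866) or Dif-FGSC replicate 3 (0.0787). Nfkbie, encoding IkB-epsilon, was 5.81 ± 0.306 FPKM in FGSC and 6.19 ± 0.193 in Dif-FGSC with overlapping groups and was not called (limma adjusted p = 0.176). Tnip1, a ubiquitin-binding partner of the inhibitor A20, was 3.25, 3.42 and 3.16 FPKM in FGSC and 4.19, 4.17 and 4.13 in Dif-FGSC, a rise of 1.27 times (limma adjusted p = 0.000919).

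Tnfaip3 and Nfkbiz stayed below the filter. Tnfaip3, which encodes the ubiquitin-editing enzyme A20, was 0.591, 0.516 and 0.617 FPKM in FGSC and 1.34, 1.27 and 1.16 in Dif-FGSC, an estimated 66.4 to 98.8 fragments against 141.9 to 185.1. Nfkbiz, a nuclear IkB induced by Toll-like receptors, was 0.633, 0.638 and 0.771 FPKM in FGSC and 0.997, 0.951 and 1.43 in Dif-FGSC. Both had groups that did not overlap. When low genes were kept in the fit, where 44% of genes were called, both were called as higher (limma adjusted p = 0.000308 for Tnfaip3 and 0.0304 for Nfkbiz).

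The promoters of all members with an entry were searched for the NF-kB consensus decamer, the kB motif, on both strands, with overlapping matches counted separately. Windows of 300 bases, 250 before and 50 after an annotated start, came from RefSeq on GRCm38.p6, while the expression values rest on mm9, so the windows were matched by gene symbol. Entries were found for 36 of the 44 members. At least 1 match was found for 14 of these, or 38.9%, against 12.1% of the 7368 tested genes with an entry and 9.55% of all 27025 genes with one. Counted by single windows, 8.46% of all 32851 promoters hold a match. By role, 5 of 6 inhibitors and 2 of 3 NF-kB subunits with an entry held a match, against 2 of 10 adaptors and 2 of 10 cytokines. A match is a run of letters and says nothing of binding. Shown are the 6 members called as changed by at least 1.5-fold with a match, all of them higher, as the strand of the gene with the matched bases in capitals. For Nfkb2 the window with the most matches of 3 annotated starts is printed. Nlrp3 has another annotated window, chr11:59542436-59542735, which held no match and is not printed. Which start these cells use was not tested.
Ier3 promoter, GRCm38.p6 chr17:35821463-35821762, plus strand: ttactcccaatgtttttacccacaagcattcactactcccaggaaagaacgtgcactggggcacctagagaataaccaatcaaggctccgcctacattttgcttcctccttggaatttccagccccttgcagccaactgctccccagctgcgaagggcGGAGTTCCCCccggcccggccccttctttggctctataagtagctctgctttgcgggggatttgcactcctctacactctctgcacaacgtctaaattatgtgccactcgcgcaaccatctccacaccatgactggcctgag
Nlrp3 promoter, GRCm38.p6 chr11:59541319-59541618, plus strand: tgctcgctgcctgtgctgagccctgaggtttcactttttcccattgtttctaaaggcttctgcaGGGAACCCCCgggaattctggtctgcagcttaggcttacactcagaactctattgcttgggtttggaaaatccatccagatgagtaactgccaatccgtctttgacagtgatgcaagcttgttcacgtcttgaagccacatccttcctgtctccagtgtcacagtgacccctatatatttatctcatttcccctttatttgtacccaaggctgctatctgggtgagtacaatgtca
Nfkb2 promoter, GRCm38.p6 chr19:46304487-46304786, plus strand: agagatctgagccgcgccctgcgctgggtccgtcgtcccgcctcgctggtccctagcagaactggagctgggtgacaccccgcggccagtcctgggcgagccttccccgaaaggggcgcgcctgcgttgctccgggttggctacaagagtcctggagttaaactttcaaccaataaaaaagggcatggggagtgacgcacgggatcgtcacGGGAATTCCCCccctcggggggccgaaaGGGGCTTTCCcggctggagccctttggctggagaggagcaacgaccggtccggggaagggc
Nfkbia promoter, GRCm38.p6 chr12:55492598-55492897, minus strand: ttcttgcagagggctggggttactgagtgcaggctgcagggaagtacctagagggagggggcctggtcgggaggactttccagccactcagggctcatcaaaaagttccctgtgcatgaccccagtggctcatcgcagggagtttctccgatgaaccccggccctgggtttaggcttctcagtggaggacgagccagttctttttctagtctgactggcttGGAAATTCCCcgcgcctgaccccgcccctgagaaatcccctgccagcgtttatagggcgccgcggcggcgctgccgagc
Rel promoter, GRCm38.p6 chr11:23770920-23771219, minus strand: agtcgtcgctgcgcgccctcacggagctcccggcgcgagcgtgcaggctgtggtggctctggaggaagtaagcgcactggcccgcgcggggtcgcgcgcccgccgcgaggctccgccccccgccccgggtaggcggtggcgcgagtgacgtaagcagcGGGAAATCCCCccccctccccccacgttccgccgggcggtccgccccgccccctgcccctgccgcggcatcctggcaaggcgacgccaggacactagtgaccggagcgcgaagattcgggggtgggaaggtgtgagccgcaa
Bcl3 promoter, GRCm38.p6 chr7:19822706-19823005, minus strand: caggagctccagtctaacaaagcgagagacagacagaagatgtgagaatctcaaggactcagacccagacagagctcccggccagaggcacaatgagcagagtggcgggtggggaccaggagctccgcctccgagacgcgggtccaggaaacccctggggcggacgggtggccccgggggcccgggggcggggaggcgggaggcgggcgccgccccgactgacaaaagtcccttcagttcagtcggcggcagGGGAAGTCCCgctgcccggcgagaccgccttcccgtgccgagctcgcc
The matches begin at base -92 from the start in Ier3, -186 in Nlrp3, -29 in Nfkbia and 3 in Bcl3. Rel holds overlapping matches at -92 and -91, and Nfkb2 holds overlapping matches at -39 and -38 and another at -11. A match did not go with a rise in every case. Il6, with a match at -44, and Nfkbie, with one at -106, were not called, while Irak2, Myd88 and Rela rose and had no match in their windows. Il4 and Card9, both lower, had none in theirs, and Tlr2, listed at 0 in every library, held 3.

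Of the 3 subunits of IKK, the 2 tested ones differed little. Chuk, encoding IKK-alpha, stood at 13.6 ± 0.928 FPKM in FGSC and 13.3 ± 0.466 in Dif-FGSC with overlapping groups (log2 difference -0.03 ± 0.0534, limma adjusted p = 0.599). Ikbkb, encoding IKK-beta, stood at 8.16 ± 0.165 and 9.02 ± 0.429 FPKM, a rise of 1.11 times (limma adjusted p = 0.0311). This call was lost after quantile normalization (limma adjusted p = 0.383), under median-ratio scaling (0.0778), and when leaving out FGSC replicate 1 (0.0791), FGSC replicate 2 (0.0818), Dif-FGSC replicate 1 (0.113) or Dif-FGSC replicate 3 (0.0788). Ikbkg, the regulatory subunit NEMO, was below the filter at 0.694, 0.636 and 0.745 FPKM in FGSC and 0.865, 0.96 and 0.898 in Dif-FGSC. Its groups did not overlap, with a rise of 1.31 times. It was called as higher when low genes were kept (limma adjusted p = 0.0111). The summed level of the 3 genes was 21.2 to 23.4 FPKM in FGSC and 23.1 to 23.3 in Dif-FGSC.

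Among adaptors and proximal kinases, 10 of 11 were tested, 5 (50%) were higher, 2 (20%) lower and 3 not called. Of all tested genes 36.5% were higher and 28.6% lower. Card9, the adaptor that links C-type lectin receptors and Syk to Bcl10 and Malt1 in myeloid cells, was listed at 12.1, 11.2 and 12.8 FPKM in FGSC and at 0.385, 0.158 and 0.344 in Dif-FGSC. An estimated 6.0 to 16.7 fragments per Dif-FGSC library lie behind the low values. The log2 difference was -3.33 ± 0.0801 (limma adjusted p = 1.26e-07). Card9 passed the filter only through FGSC, so this p and its low value describe the gap and are no independent support for it. The partners of Card9 did not follow it.

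Bcl10, the scaffold that Card9 recruits, stood at 26.4, 26.5 and 24.5 FPKM in FGSC and 28.0, 25.7 and 27.8 in Dif-FGSC, with overlapping groups (log2 difference 0.07 ± 0.0469, limma adjusted p = 0.206). Malt1, the paracaspase bound to Bcl10, stood at 5.01 ± 0.348 FPKM in FGSC and 5.84 ± 0.428 in Dif-FGSC (limma adjusted p = 0.0304). The Malt1 call was lost with quantile normalization (limma adjusted p = 0.145), median-ratio scaling (0.0502), no filter on low values (0.0652), and without FGSC replicate 1 (0.0854), FGSC replicate 2 (0.0929), Dif-FGSC replicate 1 (0.0609) or Dif-FGSC replicate 2 (0.099). It was also lost with the replicate number as a block (0.0618). Card9 per Bcl10 was 0.424 to 0.523 in FGSC and 0.00615 to 0.0137 in Dif-FGSC, whereas Malt1 per Bcl10 overlapped at 0.18 to 0.221 and 0.197 to 0.246.

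Myd88 and the Irak genes among the members, of the branch that serves Toll-like and interleukin-1 family receptors, were higher or not called. Of the receptors given below, Tlr6 and Il18rap were lower and Il1rl1 was higher. Myd88, the shared adaptor, stood at 21.7, 21.4 and 20.2 FPKM in FGSC and at 32.2, 33.1 and 31.3 in Dif-FGSC. The groups were far apart, and the rise was 1.53 times (log2 difference 0.59 ± 0.0385, limma adjusted p = 1.15e-05). Irak2, a kinase-like partner of Myd88, stood at 0.664, 0.721 and 0.917 FPKM in FGSC and at 2.77, 2.49 and 2.55 in Dif-FGSC. The change was 3.4 times (log2 difference 1.03 ± 0.0689, limma adjusted p = 1.27e-05), for a gene that passed the filter only through Dif-FGSC.

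Irak4, the kinase that starts the cascade, rose from 3.80 ± 0.334 to 4.85 ± 0.276 FPKM (limma adjusted p = 0.00491). Its exons overlap those of Twf1 on the opposite strand, which stood at 22.7 and 21.0 FPKM, so its value is uncertain without the strand setting. Irak2, Pycard, Nfkb2, Nfkbib, Bcl3, Zfp36, Il5 and Csf2 also overlap annotated genes on the opposite strand, which had no value above 0 or no row in the table. Irak1, its kinase partner, overlapped between the groups at 5.71 ± 0.229 and 6.06 ± 0.0953 FPKM and was not called (limma adjusted p = 0.154). Irak2 per Irak1 was 0.111 to 0.163 in FGSC and 0.409 to 0.465 in Dif-FGSC.

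Of the TRAF ubiquitin ligases and adaptors, Traf6, which acts below Myd88, rose from 4.41 ± 0.0974 to 5.39 ± 0.334 FPKM (limma adjusted p = 0.00382). Traf2, which acts at TNF receptors, stood at 5.01 ± 0.0753 and 5.21 ± 0.253 FPKM and was not called (limma adjusted p = 0.397). Traf1, a TRAF without the ligase domain and a target of NF-kB, was 0.0389, 0.0182 and 0.0305 FPKM in FGSC and 0.106, 0.108 and 0.0736 in Dif-FGSC. That is an estimated 1.4 to 3.6 fragments against 5.0 to 8.1, close to the floor of 3 fragments below which a gene is not taken as detected.

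Of the 4 sensors 2 were tested, and each of these passed the filter only through the group in which it was high, so their p-values describe and do not support a direction. Nlrp3, the core of an inflammasome, stood at 0.751, 0.651 and 0.684 FPKM in FGSC and at 2.23, 2.26 and 2.35 in Dif-FGSC. The groups were far apart, with a change of 3.28 times (log2 difference 0.95 ± 0.0518, limma adjusted p = 4.95e-06). Tlr6, which pairs with Tlr2 to sense bacterial lipopeptides, was 1.39, 1.67 and 1.57 FPKM in FGSC and 0.669, 0.694 and 0.813 in Dif-FGSC, at 0.47 times the level (limma adjusted p = 0.000204). Tlr4, the receptor for lipopolysaccharide, was 0.162, 0.162 and 0.24 FPKM in FGSC and 0.0224, 0.0516 and 0.0319 in Dif-FGSC, an estimated 14.5 to 17.8 fragments against 2.0 to 4.1. It was below the filter, its groups did not overlap, and it was called as lower when low genes were kept (limma adjusted p = 0.00278).

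Tlr2 was listed at 0 in every library, where 3 fragments would be 0.0369 to 0.0574 FPKM. Whether a listed 0 is a true absence of fragments or a failed estimate was not tested. Pycard, the adaptor ASC that joins Nlrp3 to caspase-1, moved against Nlrp3. It stood at 13.3, 12.2 and 14.2 FPKM in FGSC and at 9.51, 9.52 and 9.96 in Dif-FGSC, at 0.731 times the level (log2 difference -0.41 ± 0.0554, limma adjusted p = 0.000403). Casp1, the caspase of that complex and named here after its values were seen, was listed at 0 in every library.

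**Figure D3:**
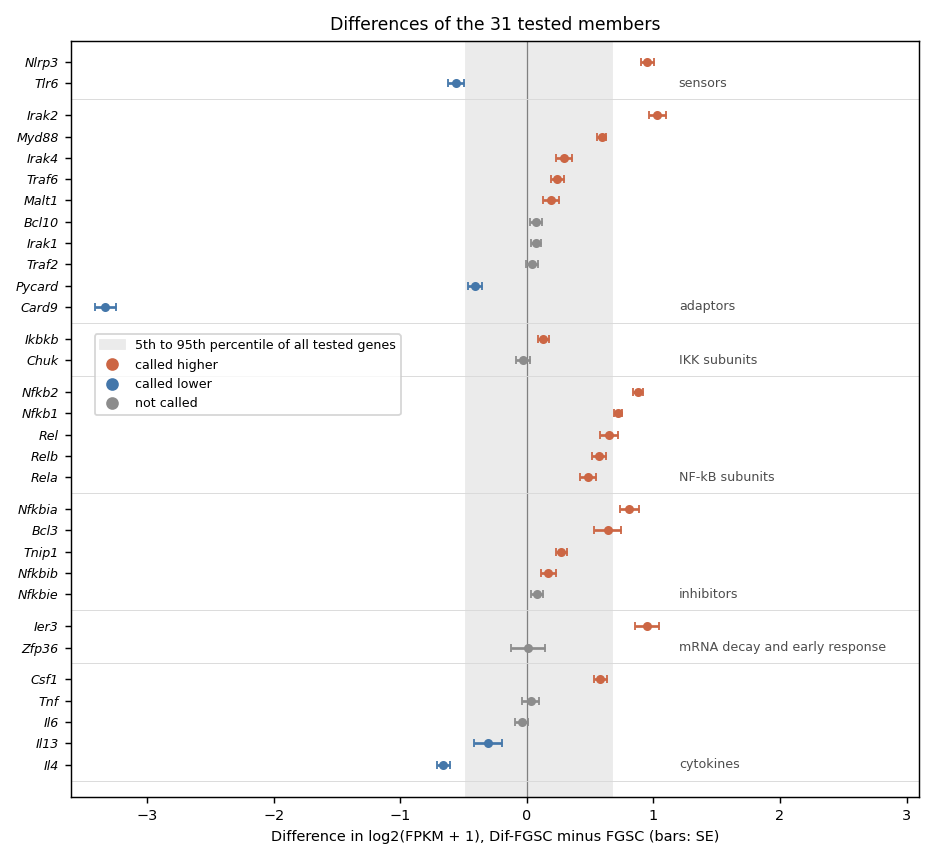
Differences in log2(FPKM + 1), Dif-FGSC minus FGSC, of the 31 tested members with the SE of the limma fit, ordered within each role, over the 5th to 95th percentile of all tested genes in grey (-0.48 to 0.67). Card9 at -3.33 lies far below the grey band and Il4 at -0.66 and Tlr6 at -0.56 below it, and Irak2, Nlrp3, Ier3, Nfkb2, Nfkbia and Nfkb1 lie above the grey band.

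Of the 12 cytokines 5 were tested, with 1 (20%) higher, 2 (40%) lower and 2 not called, against 36.5% and 28.6% of all tested genes. The summed level of the 12 overlapped between groups at 21.3 to 23.1 FPKM in FGSC and 19.5 to 21.7 in Dif-FGSC. Il4, a cytokine of type 2 immunity that mast cells and basophils also make, was 6.85, 7.41 and 7.23 FPKM in FGSC and 3.99, 4.05 and 4.46 in Dif-FGSC. Every Dif-FGSC library was lower, at 0.582 times the level (log2 difference -0.66 ± 0.0512, limma adjusted p = 2.55e-05). Il13, its neighbour and close relative, was 1.94, 1.63 and 2.10 FPKM in FGSC and 1.72, 1.06 and 1.25 in Dif-FGSC. The groups overlapped, and the call as lower (limma adjusted p = 0.0411) was lost without FGSC replicate 1 (0.0983), FGSC replicate 3 (0.113), Dif-FGSC replicate 2 (0.126) or Dif-FGSC replicate 3 (0.11) and when low genes were kept (0.0877).

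Csf1, the growth factor of macrophages, was the called cytokine that rose, from 1.28, 1.21 and 1.17 FPKM in FGSC to 2.37, 2.42 and 2.19 in Dif-FGSC, or 1.91 times (limma adjusted p = 5.38e-05). Il6, a cytokine of acute inflammation, had the highest mean of the list, though Il4 overlapped it in FGSC, and stood at 7.71, 7.14 and 8.13 FPKM in FGSC and 7.46, 7.21 and 7.64 in Dif-FGSC. Its groups overlapped (log2 difference -0.04 ± 0.0509, limma adjusted p = 0.549), though after quantile normalization it was called as lower (limma adjusted p = 0.0318). Tnf, the archetypal product of NF-kB signalling, stood at 3.86, 3.47 and 3.84 FPKM in FGSC and 4.20, 3.87 and 3.43 in Dif-FGSC. Those groups overlapped as well (log2 difference 0.03 ± 0.0689, limma adjusted p = 0.709).

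Il4, Il13, Il5, Csf2 and Il3 lie in 1 stretch of mouse chromosome 11. Il4 and Il13 are adjacent protein-coding genes, Rad50 is the 1 gene between Il13 and Il5, and Csf2 and Il3 are adjacent further on. Expression was uneven along it. Il4 and Il13 were above 1 FPKM in every library, and Rad50, a DNA repair gene named after its values were seen, stood at 23.1 FPKM in FGSC and 16.8 in Dif-FGSC. Il5, a factor of eosinophils, was an estimated 0 to 1.0 fragments in FGSC and 1.0 to 4.0 in Dif-FGSC. Csf2, encoding GM-CSF, was 0.8 to 3.1 and 1.5 to 3.8 fragments, and Il3, a growth factor of mast cells, was listed at 0 in every library, where the floor is 0.177 to 0.275 FPKM.

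The remaining cytokines were close to the floor, and differences there rest on few fragments. Il1b, the inflammasome product interleukin-1 beta, was an estimated 0 to 1.0 fragments in FGSC and 1.0 to 2.0 in Dif-FGSC. Ccl3, a chemokine of myeloid cells, was 0.139, 0.116 and 0.145 FPKM in FGSC and 0.728, 0.0645 and 0.702 in Dif-FGSC. Dif-FGSC replicates 1 and 3 were high at an estimated 12.5 and 10.6 fragments, and replicate 2 was at 1.0, below all FGSC libraries in FPKM.

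Ccl4, the adjacent chemokine gene, was 0.111, 0.0692 and 0.0871 FPKM in FGSC and 0.536, 0.463 and 0.153 in Dif-FGSC, an estimated 1.0 to 2.0 fragments against 2.0 to 7.9. Here replicate 3 was the low Dif-FGSC library, not replicate 2 as for Ccl3. Ccl2, which attracts monocytes, was 0.182, 0.113 and 0.143 FPKM in FGSC and 0.439, 0.126 and 0.313 in Dif-FGSC, with overlapping groups. With low genes kept in the fit, 6 of the 11 members below the filter and above 0 were called as higher and 1, Tlr4, as lower. Over all 14637 genes of that fit 44% were called in either direction. That share includes the genes above the filter. A share for low genes alone was not computed, so these counts only describe. Besides Tnfaip3 and Nfkbiz the members called as higher were Ikbkg (limma adjusted p = 0.0111), Traf1 (0.00628), Il1b (0.0401) and Ccl4 (0.0495). Of these, the last 3 rest on few fragments.

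**Figure D4:**
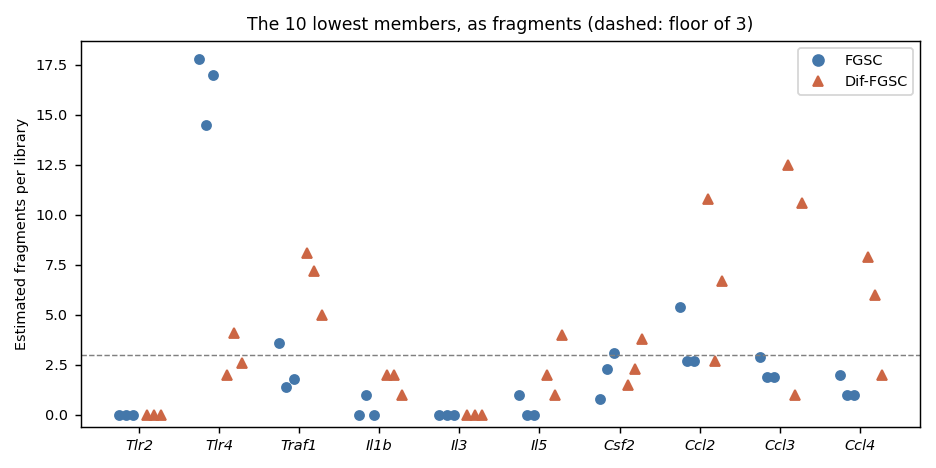
Estimated fragments per library of the 10 members with the lowest levels, with circles for FGSC, triangles for Dif-FGSC and a dashed line at the floor of 3 fragments. Tlr4 was above the floor in all FGSC libraries and Traf1 in all Dif-FGSC libraries, while Ccl2, Ccl3, Ccl4, Il5 and Csf2 were above it in part of the Dif-FGSC libraries, as was Tlr4, and single FGSC libraries were above it for Traf1, Ccl2 and Csf2.

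Ier3, an early response gene that NF-kB induces, stood at 49.5, 49.0 and 64.0 FPKM in FGSC and at 105, 107 and 103 in Dif-FGSC, a rise of 1.94 times (log2 difference 0.95 ± 0.095, limma adjusted p = 8.79e-05). FGSC replicate 3 was the high library of its group, and without it the log2 difference was 1.08. Zfp36, tristetraprolin, which destabilises cytokine mRNAs, was 3.40, 3.29 and 5.11 FPKM in FGSC and 3.84, 4.24 and 3.63 in Dif-FGSC. It was not called (limma adjusted p = 0.959), and FGSC replicate 3 decides this value: without it the log2 difference was 0.17 and Zfp36 was called as higher (limma adjusted p = 0.0487). FGSC replicate 3 was the highest of its group for 16 of the 31 tested members, against 10 for replicate 1 and 5 for replicate 2. The same count over all tested genes was not made. That library also had the lowest estimated depth, at 17.4 M fragments.

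A wider list of 170 pathway genes, of which 169 were in the table and 94 were tested, was read in the same way. Of these 94 genes 47 (50%) were higher, 23 (24.5%) lower and 24 not called, against the 36.5% higher and 28.6% lower of all tested genes, and the median log2 difference was 0.11. Called in either direction were 74.5%, against 65.1%. With quantile normalization 42 were higher and 32 lower. Ticam2, Tnfsf10, Ccl5, Ccl9 and Map3k14 passed the filter only through the group in which they were high and so had to differ. The wider list and its parts were chosen with earlier results of these data known, so their shares describe and do not test. Among known NF-kB target genes 19 were tested, 15 (78.9%) were higher, 3 (15.8%) lower and 1 not called, against the same 36.5% and 28.6%, with a median log2 difference of 0.34. Those with the largest differences were Junb, an AP-1 factor, from 23.4 ± 0.661 to 64.5 ± 2.91 FPKM, Hmox1, heme oxygenase, from 29.8 ± 2.79 to 76.0 ± 0.81, and Pim1, a survival kinase, from 44.1 ± 0.525 to 95.8 ± 3.02. Each of these 3 also answers to other pathways. The 3 targets called as lower, named after their values were seen, were Gadd45b, Nampt and Slc2a6. Gadd45b fell from 9.41 ± 0.646 to 5.39 ± 0.435 FPKM, Nampt from 33.7 ± 2.07 to 24.2 ± 1.02 and Slc2a6 from 9.44 ± 1.07 to 7.03 ± 0.32.

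Among further sensors and receptors 4 of 10 tested genes (40%) were higher and 2 (20%) lower, against 36.5% and 28.6% of all tested genes. Il1rl1, the interleukin-33 receptor of mast cells, rose from 9.74 ± 0.763 to 16.4 ± 0.188 FPKM, and is also among the mast cell markers above, while Il18rap, a chain of the interleukin-18 receptor, fell from 76.9 ± 2.13 to 36.2 ± 0.962. Clec4e, the lectin receptor Mincle whose signal runs through Card9, fell from 8.95 ± 0.253 to 4.44 ± 0.264 FPKM (limma adjusted p = 5.02e-06). Clec4d, another lectin receptor of the list and named after its values were seen, rose from 1.40 ± 0.0793 to 2.04 ± 0.111 FPKM (limma adjusted p = 0.000998). Among 35 tested adaptors, kinases and ubiquitin enzymes 15 (42.9%) were higher and 10 (28.6%) lower, near the same background. Their median log2 difference was 0.00. Prkcq, protein kinase C theta, fell from 20.5 ± 0.813 to 8.73 ± 0.533 FPKM and Traf4, a TRAF adaptor, rose from 11.4 ± 0.86 to 17.2 ± 0.427. Ticam2, the adaptor TRAM of Tlr4, stood at 0.0301 ± 0.0138 FPKM in FGSC and 3.67 ± 0.682 in Dif-FGSC (limma adjusted p = 2.39e-06). Ticam2 overlaps Tmed7 on the same strand and passed the filter only through Dif-FGSC, so its value is uncertain.

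Among 18 tested genes listed as further inhibitors and regulators of IkB turnover 7 (38.9%) were higher and 5 (27.8%) lower. These shares lie near the 36.5% and 28.6% of all tested genes. The list includes Fbxw11 and Btrc, whose products help to degrade IkB and so act against it. Fbxw11 rose from 4.45 ± 0.394 to 7.86 ± 0.307 FPKM, Zfp36l2, a relative of Zfp36, from 36.6 ± 2.12 to 58.0 ± 0.451, and Usp18, a brake on interferon signalling, fell from 3.02 ± 0.488 to 1.63 ± 0.489. Of 45 further cytokines and chemokines 12 were tested, with 6 (50%) higher and 3 (25%) lower, against the same background shares. Of the 6 higher, Ccl5, Ccl9 and Tnfsf10 passed the filter only through Dif-FGSC and so had to differ. In all, 22 of the 45 stayed below 0.1 FPKM in every library. Ltb, lymphotoxin beta, which signals to the non-canonical pathway of Nfkb2 and Relb, rose from 2.47 ± 0.052 to 9.41 ± 0.31 FPKM (limma adjusted p = 1.98e-07). Its receptor gene Ltbr, named after its values were seen, had a mean of 0.0182 FPKM in FGSC and 0 in Dif-FGSC. Whether Ltb signals in these cells was not tested. Ccl5, a chemokine of leukocytes, stood at 0.732 ± 0.21 FPKM in FGSC and 3.11 ± 0.549 in Dif-FGSC, and Ccl9, another chemokine of myeloid cells, at 0.636 ± 0.084 and 2.71 ± 0.252.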

How the data were processed

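Poly(A) RNA libraries of 6 cell samples were sequenced, and the authors deposited 1 table of FPKM values with a row per gene symbol. HISAT2 4.8.2, Cufflinks 2.2.1 and build mm9 are named in the submitters' processing notes without their roles, while annotation and strand setting were not given in the sources used here. The column prefix dif was matched to Dif-FGSC. No label explains the prefix con: it was taken to mean control and hence FGSC, and every direction rests on this reading. Of 24674 rows, the higher row of each of 2 duplicated symbols was kept. The 1 value outside the named columns was ignored.

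FPKM carries no counts, so limma 3.58.1 in R 4.3.3 (lmFit, eBayes with trend) was run on log2(FPKM + 1) for genes with a mean of at least 1 FPKM, adjusted over all 9162 genes. Errors of mean FPKM values are SDs over 3 libraries. With 3 libraries against 3 a permutation test of a single gene cannot pass 0.05, so none was used. On simulated libraries of 9162 genes the same fit recovered 37 of 50 genes changed 1.2-fold, 47 of 50 at 1.5-fold and all 50 at 2-fold and at 4-fold. There were 9 false calls among the genes left unchanged. Changes were set only in genes well above the filter in FGSC, so these figures do not cover low members such as Rel, Relb and Nlrp3. Far fewer genes were changed than were called in the data. Depth was estimated from the spacing of low values of 4428 genes with a single transcript, and fragments use the longest reference transcript. They are approximate and cover counting error only.

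All 44 members are named, with the 3 called genes of largest log2 difference from each list of further pathway genes, and promoters were printed for at most 6 called members past 1.5-fold, largest first. The members and lists were chosen with earlier results of these data known. Alternatives were other pseudocounts, filters and scalings, no trend, a replicate block and leaving out each library.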

Additional observations from a re-analysis of the deposited data

How the results depend on the processing

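Of 421 member values recomputed under 14 alternatives, 379 kept their direction and side of the threshold, 26 lost a call, 2 gained one and 14 changed sign, all 14 for members that were not called. Of 31 tested members, 19 were called in every alternative that tested them, namely the 5 NF-kB subunits, Nfkbia, Bcl3, Tnip1, Card9, Myd88, Irak2, Irak4, Traf6, Nlrp3, Tlr6, Pycard, Il4, Csf1 and Ier3. Of these 19, Card9, Irak2, Nlrp3 and Tlr6 passed the filter through 1 group only and so had to differ, and their calls say nothing of stability. The calls that were lost were those of Malt1, Nfkbib, Ikbkb and Il13.

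With a pseudocount of 5, calls of at least 1.5-fold numbered 408 over all genes and 5 among members, since the larger pseudocount shrinks the fold of low genes. With a filter of mean 5 FPKM, fewer genes were tested, and 9 members were higher, 3 lower and 7 changed at least 1.5-fold, with 15 further pathway genes lower. After quantile normalization the log2 difference was -0.0012 for Bcl10, -0.01 for Irak1, -0.04 for Traf2, -0.01 for Nfkbie, -0.07 for Tnf and -0.1 for Zfp36. With median-ratio scaling it was -0.02 for Zfp36. Leaving out 1 library at a time gave -0.08 to 0.17 for Zfp36, -0.02 to 0.09 for Tnf, -0.09 to 0.00041 for Chuk and -0.08 to 0.0025 for Il6. Over the same 6 fits 15 to 18 members were higher and 4 to 5 lower. The cause of these changes was not tested.

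Libraries share replicate numbers, but nothing ties same-numbered libraries together, and their deviations from the group means correlated at 0.131, 0.012 and 0.173 over genes. Not every library correlated best with its own number. With a replicate block 17 members were higher, 5 lower and 11 changed at least 1.5-fold, and the lost call was that of Malt1. Further pathway genes then numbered 46 higher and 21 lower.

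Depth limits the 10 lowest members, which had at most 17.8 estimated fragments in any library.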
